A study of Mus musculus with 14 samples.

Results

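The ischemic hemisphere of wild-type (Cort+/+) mice was compared with the contralateral hemisphere 48 h after transient middle cerebral artery occlusion (MCAO), across all genes whose mean expression reached 0.5 RPKM. RPKM is the number of reads on a gene scaled to the gene's length and to the size of the library. The comparison holds 6 of the 14 libraries of the series, 3 from the contralateral side (CL replicates 1, 2 and 3) and 3 from the ischemic side (MCAO replicates 2, 3 and 4), and 17484 of the 46904 genes in the table passed the minimum.

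Male mice 12 weeks old were used. They were kept on a C57BL/6J background and carried no induced mutation in Cort, the gene of the neuropeptide cortistatin. A coated filament passed through the left common carotid artery blocked the middle cerebral artery for 20 min and was then withdrawn, and whole hemispheres were taken. The MCAO group is therefore reperfused tissue of a whole hemisphere in which the lesion is a part. The CL group is described as untreated in the sample labels, but it is the other hemisphere of operated mice, so anaesthesia, meloxicam and surgery were common to both groups and no sham-operated brain was analysed here. The labels do not tie hemispheres to animals. The methods name more MCAO replicates than are analysed here and state that, where replicates varied widely, those that grouped clearly were used. The libraries numbered 2, 3 and 4 are analysed here. The other 8 libraries come from Cort-/- mice of the same age and occlusion, 3 CL and 5 MCAO, which lack cortistatin and are used only to share the estimate of spread and for one comparison of genotypes.

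The middle cerebral artery feeds the striatum and the lateral cortex, and the striatum, most of whose neurons are medium spiny neurons, is the first territory to be lost when the artery is blocked with a filament. Injured tissue activates microglia, the resident macrophages of the brain, which divide, take up debris and release chemokines, and astrocytes, which become reactive and build up intermediate filaments. Type I interferon, released when cells sense foreign or misplaced nucleic acid, switches on a large set of antiviral genes.

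The 6 libraries held between 31206666 and 40174342 reads on genes, recovered from the steps of the RPKM values. Mitochondrial genes took between 3.92% and 5.89% of the reads, with the highest share in CL replicate 3, and the summed expression of the erythrocyte genes ranged from 97.0 to 329.6 RPKM, with the lowest value in MCAO replicate 3 and the highest in CL replicate 1. Chi-square values per degree of freedom between replicates of a group lay between 7.89 and 23.01, so no pair was one library deposited under different names. Neuron, astrocyte, oligodendrocyte and microglia markers were expressed in all 6 libraries, with Snap25 of synapses at 744 RPKM or more, Slc1a2 of astrocytes at 221 RPKM or more, Mbp of myelin at 313 RPKM or more and P2ry12 of microglia at 5.42 RPKM or more.

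Most of the large differences were increases in genes of low expression, whose fold changes were also less precise. Fold changes are given as log2FC of MCAO over CL on the log2(RPKM + 0.1) scale, which understates changes of genes near 0.1 RPKM, with the SE of the fit. Of the 17484 genes, 304 had a log2FC of 1 or more and 52 of -1 or less, while 54 reached 2 and 3 reached -2. The median log2FC was -0.01, and the 5th and 95th percentiles were -0.27 and 0.48. Of the 9624 genes averaging 5 RPKM or more, 48 had a log2FC of 1 or more and 1 had -1 or less. Among the 7860 genes under 5 RPKM these counts were 256 and 51. The median SE was 0.08 in the first group and 0.18 in the second, so large values arise more easily among low genes. All 3 MCAO libraries lay above all 3 CL libraries for 39 of the 48 and 171 of the 256 increases.

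The size of a difference and its consistency over libraries did not always go together. All 3 MCAO libraries lay above all 3 CL libraries for 1428 genes (8.17% of those tested) and below them for 1202 genes (6.87%), with median log2FC of 0.33 and -0.16. Full separation of 3 libraries from 3 has an exact two-sided permutation p of 0.1, the lowest possible. Over both directions, a share of about 0.1 of genes would thus separate with no difference between the groups. That holds only for libraries taken without regard to their values. The methods state that, where replicates varied widely, those that grouped clearly were used. The share and the exact p-values may therefore not hold for these libraries. Rescaled to TPM, the counts were 1372 and 733, and after quantile normalization they were 1288 and 1418. The number of genes lower in all 3 MCAO libraries thus depended on the scaling of the libraries. Of the 304 genes with a log2FC of 1 or more, 210 did not overlap between the groups (69.1%), against 20 of the 52 genes with a log2FC of -1 or less (38.5%). Among the 94 large increases that overlapped, 44 separated once CL replicate 1 was left out and 34 once MCAO replicate 4 was left out, and 14 did not separate whichever of the 6 libraries was left out. Fewer libraries separate more easily. Without CL replicate 1, 2762 of all tested genes lay above CL and 2841 below. These counts were 2408 and 2434 without MCAO replicate 4, and 1985 and 1693 without MCAO replicate 3. Counts of list members with a library left out are to be read beside them.

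In the limma fit, 20 genes passed a Benjamini-Hochberg adjusted p of 0.05 as higher in MCAO (0.114% of the genes tested) and 0 as lower (0%). At an unadjusted p under 0.05 there were 1226 higher genes (7.01%) and 775 lower genes (4.43%), 2001 in all. The word rose is kept here for the 20 genes that passed, each of which had all 3 MCAO libraries above all 3 CL libraries. The ratio of the lowest MCAO to the highest CL value ranged from 1.26 to 7.03 among them.

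**Figure D1:**
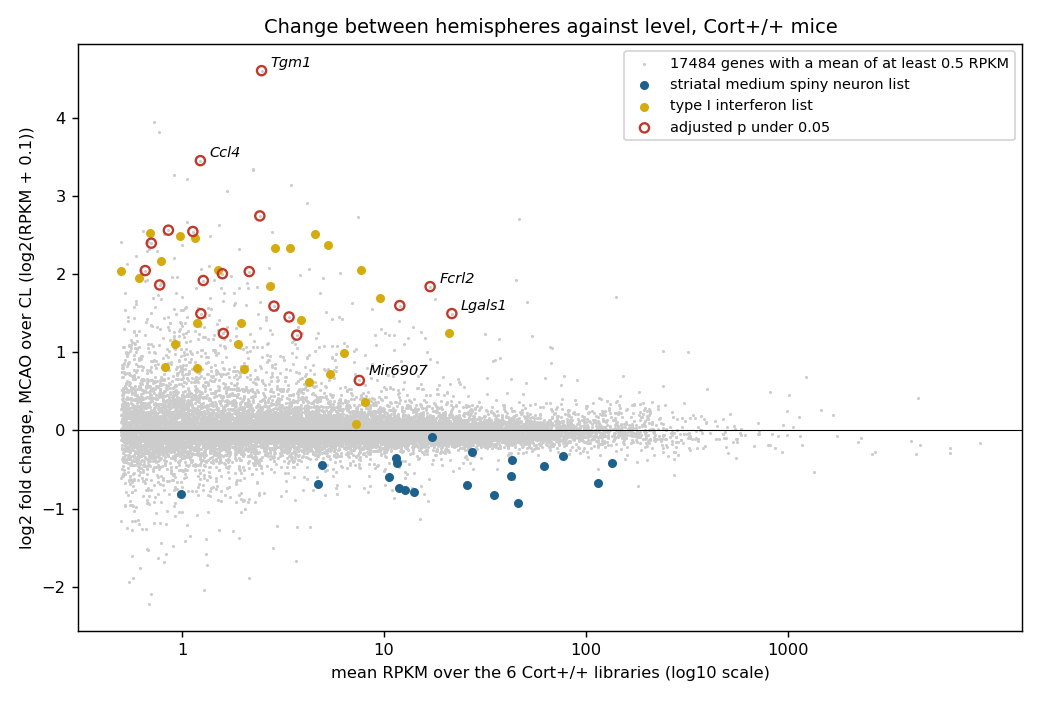
Each point is 1 of the 17484 genes, with its mean RPKM over the 6 Cort+/+ libraries on a log10 axis and its log2 fold change of MCAO over CL on the y axis. Genes with an adjusted p under 0.05 are ringed in red, the type I interferon list is yellow and the striatal medium spiny neuron list is blue. Most large increases lie among genes of low expression, and all 20 striatal genes lie below 0.

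Genes of the dividing cell were among the 20. Mki67 (chr7:135291513-135318299 of GRCm39), which coats mitotic chromosomes and is the usual proliferation marker, measured 0.194, 0.158 and 0.139 RPKM in CL replicates 1, 2 and 3 and 1.88, 1.95 and 0.819 RPKM in MCAO replicates 2, 3 and 4. Its log2FC was 2.56 ± 0.34 (SE; limma adjusted p = 0.0302). Top2a (chr11:98883769-98915062), the topoisomerase that untangles replicated DNA, measured 0.253, 0.266 and 0.216 RPKM in CL and 2.36, 2.56 and 1.14 RPKM in MCAO, with a log2FC of 2.54 ± 0.36 (limma adjusted p = 0.0302). For both genes the CL libraries lay close together and MCAO replicate 4 was the lowest of the ischemic side.

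Pbk (chr14:66041114-66055276), a kinase of mitotic cells, gave the lowest adjusted p of all genes. Its expression was 0.128, 0.185 and 0.140 RPKM in CL and 1.26, 1.67 and 0.845 RPKM in MCAO, a log2FC of 2.39 ± 0.28 (limma adjusted p = 0.0189). Prc1, which bundles the microtubules of the central spindle, was at 0.192 to 0.330 RPKM in CL and at 0.727 to 1.64 RPKM in MCAO (log2FC 1.86 ± 0.28, limma adjusted p = 0.0382). Rrm2, the subunit of ribonucleotide reductase made in S phase, was at 0.580 to 0.591 RPKM in CL and at 1.28 to 2.47 RPKM in MCAO (log2FC 1.49 ± 0.23, limma adjusted p = 0.0382).

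The same pattern ran through the cell cycle genes that were too low for the test. Of the 32 genes of the mitosis and spindle list, 14 passed the minimum of 0.5 RPKM and 4 of these rose, while 12 of the 14 lay above CL in all MCAO libraries. A gene low in CL could pass the minimum through its MCAO values, so the count was taken over the whole list too, where 29 of 32 genes lay above CL in all 3 MCAO libraries. Among all genes under the minimum and above 0, 27139 in number, 4.48% did so and 2.55% lay below. Aurkb, Birc5, Ccnb1 and Cdk1, none of which reached a mean of 0.5 RPKM, were chosen for mention after their values were seen. Cdk1, the kinase that starts mitosis, was at 0.117, 0.0518 and 0.0600 RPKM in CL and at 0.704, 0.938 and 0.304 RPKM in MCAO. Birc5, Aurkb and Ccnb1 were at most 0.323 RPKM in any CL library and at least 0.281 RPKM in any MCAO library, and for each of them the groups did not overlap. The exceptions of the list were Bub1b and Melk, which overlapped, and Anln, an actin-binding protein also made by myelinating cells, named for the same reason, at 12.1 to 13.9 RPKM in CL and 11.6 to 12.0 RPKM in MCAO. The list median was 1.07, against -0.01 over all genes tested, and the medians of its differences from the CL mean were 1.31, 1.48 and 0.59 in MCAO replicates 2, 3 and 4. Of the 22 tested genes of DNA replication and S phase, 11 lay above CL without overlap (19 without MCAO replicate 4) and the median was 0.37, and the genes of largest change were Tk1 (log2FC 1.92 ± 0.48, limma adjusted p = 0.145), Uhrf1 (1.68 ± 0.41, 0.143) and Rrm2. In a whole hemisphere, more cells of a type and more RNA of a gene per cell cannot be told apart, here and for every list.

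Genes of the type I interferon response had large fold changes and a wide spread between the ischemic libraries. In contrast with the mitotic genes, 0 of the 28 tested interferon genes passed the adjusted test (21 at an unadjusted p under 0.05), although all 28 had a positive log2FC and 22 did not overlap. Isg15, a ubiquitin-like protein attached to targets during the antiviral response, was at 1.84, 0.864 and 0.915 RPKM in CL and at 4.67, 20.8 and 2.53 RPKM in MCAO replicates 2, 3 and 4 (log2FC 2.37 ± 0.79, limma adjusted p = 0.25). Ifit3, one of the proteins that bind foreign RNA, was at 4.96, 3.81 and 2.53 RPKM in CL and at 10.3, 30.5 and 5.41 RPKM in MCAO (log2FC 1.69 ± 0.57, limma adjusted p = 0.26). In both, MCAO replicate 3 stood far above the other ischemic libraries and replicate 4 was just above the highest CL library.

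Promoter sequence is shown for 2 genes each of the interferon and mitosis lists, whose tested members had a positive log2FC in 28 of 28 and 13 of 14 cases. The 4 genes are examples that hold the motifs. The 200 bases before the transcription start are given 5′ to 3′ on the strand of the gene, from RefSeq on build GRCm38.p6, with motif matches in capitals. For the interferon genes the motif is the interferon-stimulated response element, searched as GAAANNGAAA on both strands. Isg15 (chr4:156200819-156201018, minus strand) held 3 matches that overlap one another, in the stretch from 78 to 57 bases before the start. Ifit3 (chr19:34583329-34583528, plus strand) held 2 matches, between 156 and 113 bases before the start. This motif was found in 2.27% of 32851 mouse promoters of the same length. Of the 30 interferon genes 21 had a promoter sequence, of which 9 held the motif and 12 did not, and with 9 genes missing no share is given for the list.
Isg15: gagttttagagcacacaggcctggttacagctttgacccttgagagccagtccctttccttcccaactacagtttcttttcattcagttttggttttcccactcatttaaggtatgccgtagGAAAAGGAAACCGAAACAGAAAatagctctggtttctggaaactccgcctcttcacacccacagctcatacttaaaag
Ifit3: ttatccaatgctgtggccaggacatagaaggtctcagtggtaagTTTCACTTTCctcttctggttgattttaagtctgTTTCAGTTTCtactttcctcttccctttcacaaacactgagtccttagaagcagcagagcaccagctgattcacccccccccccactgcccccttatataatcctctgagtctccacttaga

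For the cell cycle genes the motifs are the cell cycle homology region, searched as TTTGAA, and the CCAAT box, both on both strands. Mki67 (chr7:135716380-135716579, minus strand) held 2 and 3 matches, between 188 and 93 bases before the start, and Top2a (chr11:99024190-99024389, minus strand) held 2 and 5 matches, between 189 and 18 bases before it. TTTGAA was present in 12.5% and CCAAT in 29.3% of the 32851 promoters. Of the 32 genes of the mitosis list, 26 had a promoter sequence, of which 10 held TTTGAA (38.5%) and 19 held CCAAT (73.1%), where over all genes with a promoter the shares were 14.4% and 32.7%. Matches are letters in a window, and binding at them was not measured.
Mki67: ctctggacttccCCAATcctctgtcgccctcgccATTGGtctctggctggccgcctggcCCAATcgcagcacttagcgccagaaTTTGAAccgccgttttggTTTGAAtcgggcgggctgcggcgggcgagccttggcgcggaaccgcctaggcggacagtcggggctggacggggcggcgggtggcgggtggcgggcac
Top2a: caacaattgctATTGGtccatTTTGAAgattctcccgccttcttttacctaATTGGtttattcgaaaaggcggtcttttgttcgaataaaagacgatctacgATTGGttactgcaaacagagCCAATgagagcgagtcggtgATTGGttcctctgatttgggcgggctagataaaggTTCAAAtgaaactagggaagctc

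Over the whole interferon list the ischemic libraries kept this order. The summed expression of its genes was 46.0 to 66.7 RPKM in CL and 117, 290.7 and 76.1 RPKM in MCAO replicates 2, 3 and 4. The list median log2FC was 1.55, and it was 0.98 without MCAO replicate 3. Over all 30 listed, 22 lay above CL without overlap and the median was 1.44. Zbp1, a sensor of Z-form nucleic acid (log2FC 2.52 ± 0.73), Ifi27l2a (2.51 ± 0.67) and Ifi204, a DNA sensor (2.49 ± 0.68), had the largest log2FC of the list, with limma adjusted p between 0.161 and 0.193. Bst2, which tethers budding virus to the cell, was at 2.00 to 2.74 RPKM in CL and at 10.01, 24.3 and 4.65 RPKM in MCAO (log2FC 2.05 ± 0.63, limma adjusted p = 0.216).

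Other genes that interferon controls were highest in MCAO replicate 3 too. All 11 tested interferon-inducible GTPases, which attack the membranes of intracellular microbes, lay above CL without overlap, with a median of 0.99 (0.65 without MCAO replicate 3), and none passed the adjusted limma test while 11 had an unadjusted p under 0.05. Gbp2 was at 0.885 to 1.14 RPKM in CL and at 2.50, 6.87 and 2.20 RPKM in MCAO (log2FC 1.64 ± 0.44, limma adjusted p = 0.161). Of 14 tested genes of MHC class I presentation, 12 did not overlap, with a median of 0.56 (0.34 without MCAO replicate 3). Psmb9, a subunit of the immunoproteasome, was at 0.342 to 0.550 RPKM in CL and at 1.40, 2.59 and 0.884 RPKM in MCAO. B2m, the light chain of class I molecules, was at 53.5 to 65.8 RPKM in CL and at 83.4, 124 and 66.3 RPKM in MCAO, so that replicate 4 stood just above CL replicate 3. Of 7 tested class II genes 6 did not overlap (median 0.89), among them Cd74, the invariant chain, at 2.12 to 2.35 RPKM in CL and at 3.83, 6.87 and 4.38 RPKM in MCAO (log2FC 1.11 ± 0.28), where replicate 2 and not replicate 4 was the lowest ischemic library.

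**Figure D2:**
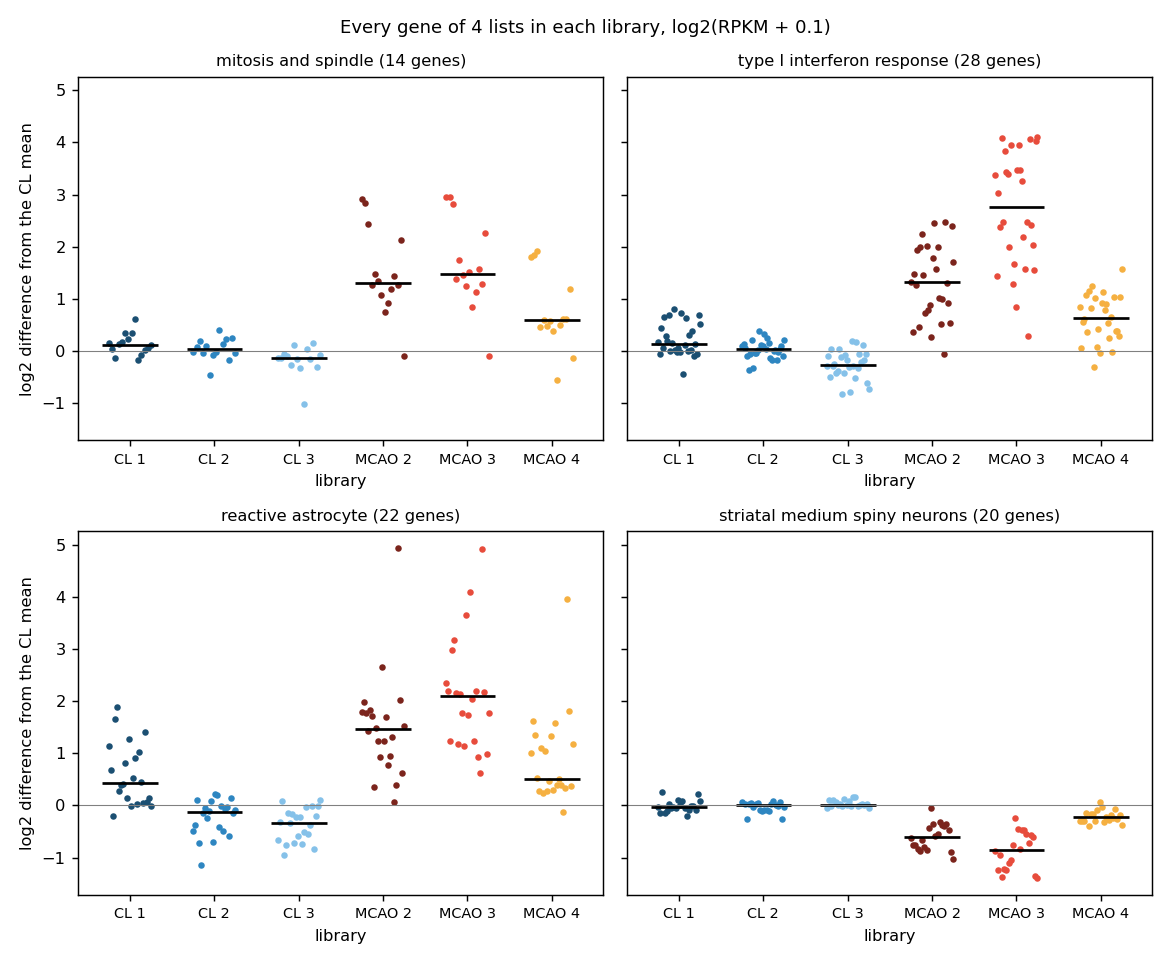
Each point is 1 tested gene of the mitosis, type I interferon, reactive astrocyte or striatal medium spiny neuron list in 1 of the 6 libraries, as its log2 difference from the mean of the 3 CL libraries, and bars are medians. MCAO replicate 3 is the highest and replicate 4 the lowest ischemic library for the first 3 lists, the reactive astrocyte genes of CL replicate 1 lie above those of the other CL libraries, and the striatal list is lower in all MCAO libraries.

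Chemokines had some of the largest fold changes. Ccl4, a CC chemokine made by activated microglia, was at 0.251, 0 and 0.122 RPKM in CL and at 2.44, 3.60 and 0.979 RPKM in MCAO (log2FC 3.45 ± 0.57, limma adjusted p = 0.0443). Its neighbour Ccl3 was at 0.151 to 0.396 RPKM in CL and at 3.41, 4.38 and 1.48 RPKM in MCAO, and just missed the threshold (log2FC 3.06 ± 0.52, limma adjusted p = 0.0502). Ccl12 was at 0.377 to 0.975 RPKM in CL and at 3.62, 17.7 and 1.68 RPKM in MCAO (log2FC 2.91 ± 0.79, limma adjusted p = 0.166). Ccl2, which draws monocytes, overlapped, since MCAO replicate 4 at 0.238 RPKM was below CL replicate 1 at 0.271 RPKM, while MCAO replicate 3 reached 6.18 RPKM. Of 7 tested CC chemokines, 5 did not overlap and 1 rose, with a median of 2.48 (1.43 without MCAO replicate 3). Chemokines low in CL could pass the minimum through their MCAO values. Over all 11 listed, 6 lay above CL without overlap and the median was 1.33.

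In the CXC family 2 of 5 tested genes separated the groups. Cxcl16, a membrane-bound chemokine and scavenger receptor, rose from 0.408, 0.471 and 0.477 RPKM in CL to 1.92, 3.06 and 1.32 RPKM in MCAO (log2FC 1.92 ± 0.28, limma adjusted p = 0.0302). Cxcl10, an interferon-induced chemokine, was at 0.0705 to 0.308 RPKM in CL and at 0.823, 4.75 and 0.744 RPKM in MCAO (log2FC 2.46 ± 0.74, limma adjusted p = 0.203). The other 3 tested members of this list were slightly lower in MCAO, and the median of the 5 was -0.13 (0.064 without MCAO replicate 3). Over all 10 listed, 4 lay above and 1 below CL without overlap, and the median was 0.04.

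Microglial genes were higher as a group. Fcrl2 (Fcrls in older annotation), which marks resident microglia rather than blood monocytes, rose from 5.54, 8.29 and 7.43 RPKM in CL to 34.2, 30.7 and 15.4 RPKM in MCAO (log2FC 1.84 ± 0.30, limma adjusted p = 0.0443). P2ry12, the purine receptor of resting microglia, overlapped, at 5.42, 9.08 and 10.1 RPKM in CL and 10.5, 9.35 and 10.1 RPKM in MCAO (log2FC 0.33 ± 0.17). Cd52, a glycoprotein of leukocytes that microglia also make, was at 3.97, 1.41 and 1.62 RPKM in CL and at 8.98, 15.6 and 4.71 RPKM in MCAO (log2FC 2.01 ± 0.52, limma adjusted p = 0.16). All 16 genes of the homeostatic microglia list had a positive log2FC, 10 of them without overlap, and the list median was 0.62. Olfml3, a secreted microglial protein, was at 2.41 to 3.16 RPKM in CL and at 9.54, 9.87 and 5.18 RPKM in MCAO (log2FC 1.42 ± 0.25, limma adjusted p = 0.0527).

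Genes of the disease-associated microglial state had larger fold changes. Of 21 tested genes 15 did not overlap, with a median of 1.02. Here too genes low in CL could pass the minimum through their MCAO values. Over all 22 listed, 16 lay above CL without overlap and the median was 1.02. Clec7a, the receptor Dectin-1, rose from 0.254, 0.102 and 0.200 RPKM in CL to 1.17, 1.64 and 0.582 RPKM in MCAO (log2FC 2.04 ± 0.34, limma adjusted p = 0.0443). Cst7, an inhibitor of lysosomal proteases, was at 0.224, 0 and 0.0815 RPKM in CL and at 2.34, 3.18 and 0.491 RPKM in MCAO (log2FC 3.22 ± 0.66, limma adjusted p = 0.0958). Lgals3, a sugar-binding protein of phagocytes, was at 1.18, 0.473 and 0.337 RPKM in CL and at 6.40, 8.82 and 3.64 RPKM in MCAO (log2FC 3.13 ± 0.55, limma adjusted p = 0.0527). Spp1, or osteopontin, had the largest non-overlapping increase among genes of at least 5 RPKM with a proper name, at 10.97, 8.19 and 9.89 RPKM in CL and 72.8, 154 and 22.4 RPKM in MCAO (log2FC 2.70 ± 0.59, limma adjusted p = 0.119). These 4 genes kept one order of the ischemic libraries, with replicate 3 highest and replicate 4 lowest. Trem2, the lipid receptor needed for the microglial state, was at 5.44 to 6.78 RPKM in CL and at 16.9, 17.5 and 10.4 RPKM in MCAO (log2FC 1.23 ± 0.22, limma adjusted p = 0.0568). Apoe, which carries lipid and is made mostly by astrocytes, overlapped, at 498 to 641 RPKM in CL and 552 to 586 RPKM in MCAO (log2FC -0.03 ± 0.09).

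Several more of the 20 genes belong to phagocytes. Bcl2a1b, a survival protein of myeloid cells, rose from 0.637 to 0.843 RPKM in CL to 2.37 to 5.07 RPKM in MCAO (log2FC 2.03 ± 0.32, limma adjusted p = 0.0382). It belongs to a family of near-identical copies between which reads can be split, so its own share of the change is uncertain. Mpeg1, the pore-forming protein of macrophages, and Adgre1, the macrophage marker F4/80, lie outside the rule for named genes. Mpeg1 rose from 5.22 to 5.85 RPKM in CL to 20.2, 24.5 and 10.3 RPKM in MCAO (log2FC 1.60 ± 0.27, limma adjusted p = 0.0452). Adgre1 rose from 1.17 to 1.56 RPKM in CL to 4.99, 5.50 and 2.63 RPKM in MCAO (log2FC 1.59 ± 0.25, limma adjusted p = 0.0382).

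Genes of phagocytosis and digestion were higher as well. Of the 20 lysosomal genes 13 did not overlap, with a median of 0.65, and Cd68, the lysosomal membrane protein of macrophages, was at 6.26 to 11.4 RPKM in CL and 30.9, 35.1 and 16.3 RPKM in MCAO (log2FC 1.68 ± 0.35, limma adjusted p = 0.0999). Ctsz, a cathepsin, and Gusb, which degrades glycosaminoglycans, had log2FC of 1.17 ± 0.27 and 1.12 ± 0.24 without overlap. Of 6 Fc receptor genes 3 did not overlap (median 1.11; 5 genes without CL replicate 1 or MCAO replicate 4), among them Fcer1g, their signaling chain, at 8.66 to 13.2 RPKM in CL and 14.8 to 30.6 RPKM in MCAO, and Fcgr4, an activating receptor for IgG, at 0.138 to 0.505 RPKM in CL and 0.592 to 3.18 RPKM in MCAO. Plin2, which coats lipid droplets, was at 2.10 to 2.99 RPKM in CL and at 7.29, 11.7 and 4.38 RPKM in MCAO (log2FC 1.51 ± 0.33, limma adjusted p = 0.119), and Ch25h, which makes 25-hydroxycholesterol, was at 0.135 to 0.854 RPKM in CL and at 0.885 to 4.08 RPKM in MCAO, although the median of their list of lipid droplet and cholesterol efflux genes was 0.25. Of 10 tested leukocyte adhesion genes 7 did not overlap (median 0.53, and 0.32 without MCAO replicate 3), with Itgb2, the beta chain of leukocyte integrins, at 1.56 to 2.88 RPKM in CL and 3.10 to 6.57 RPKM in MCAO, and Itgam, the integrin CD11b, at 3.50 to 4.22 RPKM in CL and 5.38 to 9.64 RPKM in MCAO.

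Complement genes depended on several single libraries, CL replicate 1 among them. C1qc, a chain of the first complement component, was at 42.9, 26.2 and 27.5 RPKM in CL and at 79.7, 103 and 46.7 RPKM in MCAO (log2FC 1.21 ± 0.31, limma adjusted p = 0.16). Its partner C1qa overlapped, because CL replicate 1 at 57.1 RPKM was above MCAO replicate 4 at 56.6 RPKM. Of 17 tested complement genes 5 did not overlap (median 0.57), and without CL replicate 1 the count was 13 (median 0.94). Over all tested genes the count above CL also went up without that library, from 1428 to 2762. The median was 0.27 without MCAO replicate 3 and 0.34 without CL replicate 3. C3ar1, the receptor of the C3a fragment, was at 0.363 to 1.04 RPKM in CL and 1.28 to 4.49 RPKM in MCAO (log2FC 1.98 ± 0.50). C5ar1, the receptor of C5a, overlapped, with 0.965 RPKM in CL replicate 1 and 0.905 RPKM in MCAO replicate 4.

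Most markers of cells that enter from the blood had low expression. Of the 18 monocyte and macrophage genes 8 passed the minimum, 3 of them without overlap (7 without CL replicate 1), with a median of 0.66 (0.37 without MCAO replicate 3). Over the whole list 8 of 18 genes lay above CL without overlap, 5 of them among the 10 genes under the minimum. The summed expression was 13.3 to 20.9 RPKM in CL and 27.4, 44.7 and 21.0 RPKM in MCAO. Ccr2, the receptor that defines inflammatory monocytes, was at 0.0171 to 0.0897 RPKM in CL and at 0.103, 0.333 and 0.0956 RPKM in MCAO, and Ly6c2 overlapped between the groups. Msr1, a scavenger receptor, was at 0.0468 to 0.303 RPKM in CL and at 1.54, 2.56 and 0.339 RPKM in MCAO (log2FC 2.52 ± 0.66, limma adjusted p = 0.16), and S100a4 was at 0.929 to 2.93 RPKM in CL and 4.22 to 10.1 RPKM in MCAO (log2FC 2.07 ± 0.49, limma adjusted p = 0.121). From the genes of this list under the minimum, Cd5l and Mmp12 were picked after their values were seen. Cd5l, a protein of tissue macrophages, had no read in the 3 CL libraries and measured 0.696, 0.890 and 0.0793 RPKM in MCAO, and Mmp12, the macrophage elastase, was at 0.00673 to 0.00726 RPKM in CL and at 0.538, 0.375 and 0.568 RPKM in MCAO.

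Most neutrophil and lymphocyte transcripts were close to the limit of these libraries. Ly6g, which defines mouse neutrophils, was at 0 in 3 of the 6 libraries and at most 0.0585 RPKM, in CL replicate 1. The 12 neutrophil genes summed to 6.20 to 13.6 RPKM in CL and 10.5 to 22.8 RPKM in MCAO. Of the 12 genes, 2 lay above CL without overlap and 4 passed the minimum. Among them Lcn2, which reactive astrocytes also make, was at 5.84, 0.632 and 0.849 RPKM in CL and at 5.59, 14.3 and 1.84 RPKM in MCAO, and Csf3r, the receptor of granulocyte colony-stimulating factor, at 2.42 to 2.74 RPKM in CL and 2.87 to 3.77 RPKM in MCAO. Cd3e, Cd3d and Cd3g, the chains that define T cells, were at most 0.0958 RPKM in any library. The 16 T cell and cytotoxic genes summed to 13.5 to 17.6 RPKM in CL and 11.7 to 15.3 RPKM in MCAO. Of these 16 genes, 5 lay above CL without overlap and 1 below. Among the 12 under the minimum, which averaged at most 0.0687 RPKM, 4 lay above, against 4.48% of all genes under the minimum. Cd4, named for T cells but also made by other cells, was lower in all MCAO libraries, at 4.11, 3.67 and 4.51 RPKM in CL and 1.39, 1.21 and 2.82 RPKM in MCAO (log2FC -1.23 ± 0.36, limma adjusted p = 0.196). Of the 10 genes of border-associated macrophages 4 passed the minimum and 1 did not overlap (median 0.31, and 0.57 without CL replicate 1 and 0.47 without MCAO replicate 4).

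Sensors and cytokine pathways separated the groups in part. Of 11 tested genes of pattern recognition 6 did not overlap (11 without MCAO replicate 4), 1 of which, Clec7a, rose, and the median was 0.76. Over all 20 listed, 8 lay above CL without overlap and the median was 0.50. Tlr2, the receptor of bacterial lipoproteins, was at 1.19, 0.384 and 0.373 RPKM in CL and 2.38, 3.76 and 1.25 RPKM in MCAO (log2FC 1.82 ± 0.54, limma adjusted p = 0.198). In the list of the inflammasome and the IL-1 family 5 of 9 tested genes did not overlap (median 0.46, and 0.27 without MCAO replicate 3), among them Casp1, which cleaves pro-IL-1, at 0.793 to 0.893 RPKM in CL and 1.12 to 1.97 RPKM in MCAO (log2FC 0.74 ± 0.18). Of 14 tested genes of TNF and NF-kappaB 4 did not overlap (median 0.24; 9 genes and 0.48 without CL replicate 1, and 11 genes without MCAO replicate 4). Tnfrsf12a, the receptor of TWEAK, was at 2.78 to 3.12 RPKM in CL and 4.90 to 8.80 RPKM in MCAO (log2FC 1.06 ± 0.28, limma adjusted p = 0.161).

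In the IL-6 family, 15 genes were tested and 2 did not overlap (median 0.19; 5 genes without CL replicate 1 and 6 without MCAO replicate 4). Clcf1, a cytokine of this family that acts through the ciliary neurotrophic factor receptor, rose from 0.597, 0.642 and 0.479 RPKM in CL to 2.60, 2.93 and 2.26 RPKM in MCAO (log2FC 2.00 ± 0.29, limma adjusted p = 0.0302). Its 3 ischemic values lay closer together than those of most of the 20 genes. Bcl3, a nuclear partner of NF-kappaB, was at 0.145 to 0.462 RPKM in CL and 0.751 to 2.69 RPKM in MCAO, while Socs3, the feedback inhibitor of the pathway, overlapped at 0.945 to 2.47 RPKM in CL and 2.28 to 6.50 RPKM in MCAO.

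Reactive astrocyte genes included the largest change of all 20 genes. Tgm1 (chr14:55937466-55951383), a transglutaminase that cross-links proteins, rose from 0.412, 0.0288 and 0.00891 RPKM in CL to 5.81, 5.70 and 2.90 RPKM in MCAO (log2FC 4.60 ± 0.62, limma adjusted p = 0.0302). Nes, the intermediate filament nestin of progenitors and reactive astrocytes, rose from 1.52, 1.89 and 1.86 RPKM in CL to 6.21, 4.24 and 4.61 RPKM in MCAO (log2FC 1.45 ± 0.20, limma adjusted p = 0.0302). Vim, or vimentin, was at 29.3, 13.98 and 14.7 RPKM in CL and at 72.1, 83.7 and 55.7 RPKM in MCAO (log2FC 1.93 ± 0.39, limma adjusted p = 0.0936). Of 22 tested reactive astrocyte genes 4 rose and 14 did not overlap, with a median of 1.47.

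CL replicate 1 stood apart from the other CL libraries in this list. Its summed expression was 282.3, 114.4 and 108.6 RPKM in CL replicates 1, 2 and 3, and 446.9, 698.8 and 286.1 RPKM in MCAO replicates 2, 3 and 4. Gfap, the astrocyte intermediate filament, was at 132 RPKM in CL replicate 1 and at 42.8 and 37.9 RPKM in the other CL libraries, so that it overlapped with MCAO replicate 4 at 120 RPKM, while MCAO replicates 2 and 3 reached 207 and 304 RPKM. Serpina3n, a protease inhibitor, was at 59.6, 11.4 and 9.72 RPKM in CL and at 51.0, 149 and 27.1 RPKM in MCAO. Without CL replicate 1, 21 of the 22 genes did not overlap, while 2762 of all tested genes lay above CL in place of 1428. The median difference of CL replicate 1 from the CL mean was 0.42 for this list. It was 0.57 for infiltrating and 0.53 for border-associated macrophages, 0.50 for CC chemokines, 0.43 for Fc receptors and 0.61 for erythrocytes. Other lists were low in this library, such as the immediate early genes (-0.47). The glucocorticoid target list was high in the same library, with sums of 598.8, 305.8 and 329.1 RPKM in CL and 377.7, 689.2 and 355.7 RPKM in MCAO, and its part in the astrocyte values was not tested.

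Homeostatic astrocyte genes did not move as a list. Of 19 genes 5 lay above and 1 below CL without overlap (8 above without CL replicate 1 or MCAO replicate 3), and the median was 0.05. Slc1a2, the main glutamate transporter, was at 246 to 253 RPKM in CL and at 221 to 239 RPKM in MCAO (log2FC -0.11 ± 0.07), whereas Aqp4, the water channel of astrocyte endfeet, was at 15.1 to 18.7 RPKM in CL and 19.1 to 26.9 RPKM in MCAO (log2FC 0.49 ± 0.15, limma adjusted p = 0.197).

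Genes of the cytoskeleton and of matrix breakdown were also among the 20. Tubb6, a beta-tubulin, rose from 0.909, 0.296 and 0.473 RPKM in CL to 3.81, 6.52 and 2.55 RPKM in MCAO (log2FC 2.74 ± 0.44, limma adjusted p = 0.0382). Lgals1, a galectin, rose from 11.2, 10.5 and 12.0 RPKM in CL to 32.5, 38.4 and 25.5 RPKM in MCAO (log2FC 1.49 ± 0.23, limma adjusted p = 0.0382), the highest expression among the 20. Tagln, an actin-binding protein of smooth muscle, rose from 1.74 to 2.61 RPKM in CL to 3.99 to 6.50 RPKM in MCAO (log2FC 1.22 ± 0.19, limma adjusted p = 0.0382), while the pericyte and smooth muscle list it belongs to had a median of 0.07. Plau, or urokinase, which activates plasmin and lies outside the rule for named genes, rose from 0.824 to 1.00 RPKM in CL to 1.59 to 2.74 RPKM in MCAO (log2FC 1.24 ± 0.21, limma adjusted p = 0.0476).

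The last of the 20, Mir6907, also lies outside that rule. It is the hairpin of a microRNA (chr10:78244309-78244379) inside Rrp1 on the same strand, so reads on it cannot be told from those of its host gene. Its values were 5.43, 6.52 and 5.66 RPKM in CL and 8.22, 8.97 and 10.5 RPKM in MCAO (log2FC 0.64 ± 0.10, limma adjusted p = 0.0382), and it differed from the others in that MCAO replicate 4 was the highest library.

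**Figure D3:**
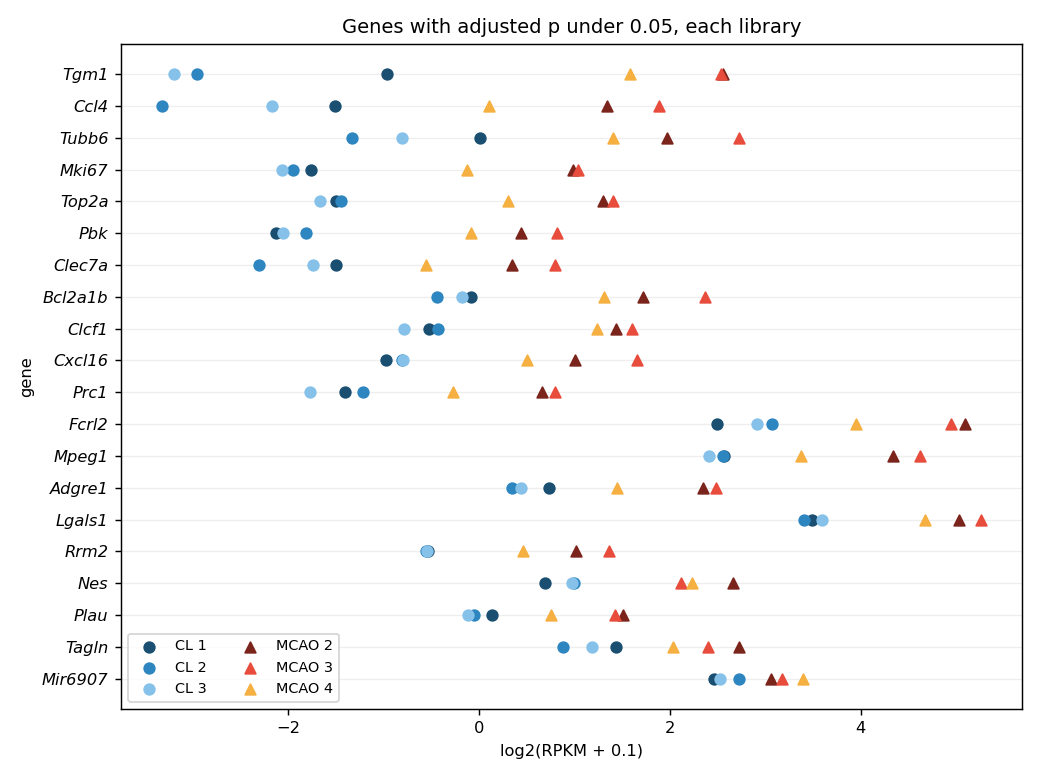
The 20 genes with an adjusted p under 0.05 are ordered by fold change, with log2(RPKM + 0.1) in each library on the x axis, circles for the 3 CL libraries and triangles for the 3 MCAO libraries. Triangles lie to the right of all circles for every gene, and MCAO replicate 4 is the lowest of the ischemic libraries for 18 of the 20.

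Most matrix proteases and matrix genes had a positive log2FC, 17 of 18 and 21 of 26 of those tested. Timp1, an inhibitor of metalloproteases, was at 1.58, 0.326 and 0.362 RPKM in CL and at 4.26, 8.55 and 1.64 RPKM in MCAO, where replicate 4 stood only just above CL replicate 1 (log2FC 2.54 ± 0.74, limma adjusted p = 0.193). Klk6, a serine protease of oligodendrocytes, was at 2.20 to 3.96 RPKM in CL and at 9.65, 13.5 and 8.26 RPKM in MCAO (log2FC 1.63 ± 0.29, limma adjusted p = 0.0556). Cd44, the hyaluronan receptor, was at 0.616 to 0.858 RPKM in CL and at 2.48, 3.42 and 1.61 RPKM in MCAO (log2FC 1.66 ± 0.32, limma adjusted p = 0.0778), and Tnc, or tenascin C, had a log2FC of 1.37 ± 0.28. The medians were 0.32 over 18 tested genes of proteases and inhibitors and 0.34 over 26 matrix genes, with 6 and 7 genes above CL without overlap (12 and 15 without CL replicate 1), and the matrix median was 0.19 without MCAO replicate 3. Of the 17 S100 and annexin genes 12 did not overlap, with a median of 0.62. Tgfb1, the founding TGF-beta ligand, was at 2.23 to 2.88 RPKM in CL and 3.31 to 5.88 RPKM in MCAO (log2FC 0.85 ± 0.24).

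Genes of the striatum were lower in the ischemic hemisphere. Of the 20 genes of striatal medium spiny neurons 16 lay below CL in all 3 MCAO libraries (6.87% of all tested genes did) and all 20 had a negative log2FC, with a list median of -0.59. None passed the adjusted limma test, and 18 had an unadjusted p under 0.05. Scn4b, a sodium channel beta subunit, was at 62.9, 58.5 and 57.6 RPKM in CL and at 29.3, 22.6 and 46.2 RPKM in MCAO (log2FC -0.93 ± 0.21, limma adjusted p = 0.119). The CL libraries lay within a narrow range, and MCAO replicate 4 was nearest to them.

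The same order was seen in the dopamine and adenosine receptors that divide medium spiny neurons into a direct and an indirect pathway. Drd1, the receptor of the direct pathway, was at 12.5, 13.2 and 12.3 RPKM in CL and at 8.19, 6.88 and 10.3 RPKM in MCAO (log2FC -0.59 ± 0.14, limma adjusted p = 0.124). Drd2, of the indirect pathway, was at 14.3, 16.1 and 16.9 RPKM in CL and at 9.32, 6.66 and 12.8 RPKM in MCAO (log2FC -0.76 ± 0.24, limma adjusted p = 0.228). Adora2a, the adenosine receptor found with it, was at 15.9, 17.8 and 19.0 RPKM in CL and at 9.74, 6.75 and 15.8 RPKM in MCAO (log2FC -0.78 ± 0.29, limma adjusted p = 0.298). Genes of both pathways were thus lower in the same libraries. Rgs9, which speeds the switching off of G proteins in these neurons and is named after its values were seen, was at 14.4 to 15.3 RPKM in CL and at 8.13, 7.08 and 12.0 RPKM in MCAO (log2FC -0.73 ± 0.20, limma adjusted p = 0.177), and Lrrc10b, which was not on the list, was at 19.8 to 23.3 RPKM in CL and 10.6, 8.65 and 15.8 RPKM in MCAO (log2FC -0.90 ± 0.22, limma adjusted p = 0.146).

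The neuropeptide genes Penk, Pdyn and Tac1, together with Ido1, were the 4 members that overlapped, of which the first 3 are named after their values were seen. Penk, the enkephalin precursor of the indirect pathway, was at 148, 144 and 167 RPKM in CL and at 114, 90.0 and 144 RPKM in MCAO, so that only MCAO replicate 4 met the CL range. The summed expression of the 20 genes was 847, 799 and 853 RPKM in CL replicates 1, 2 and 3 and 563, 470 and 723 RPKM in MCAO replicates 2, 3 and 4. Leaving out 1 library at a time gave list medians between -0.43 (without MCAO replicate 3) and -0.73 (without MCAO replicate 4). In the fit without MCAO replicate 4, 20 genes passed as lower (0.114% of those tested), and 8 of them were members of this list, among them Scn4b, Rgs9, Ppp1r1b, Drd1, Rasd2, Gng7 and Foxp1.

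**Figure D4:**
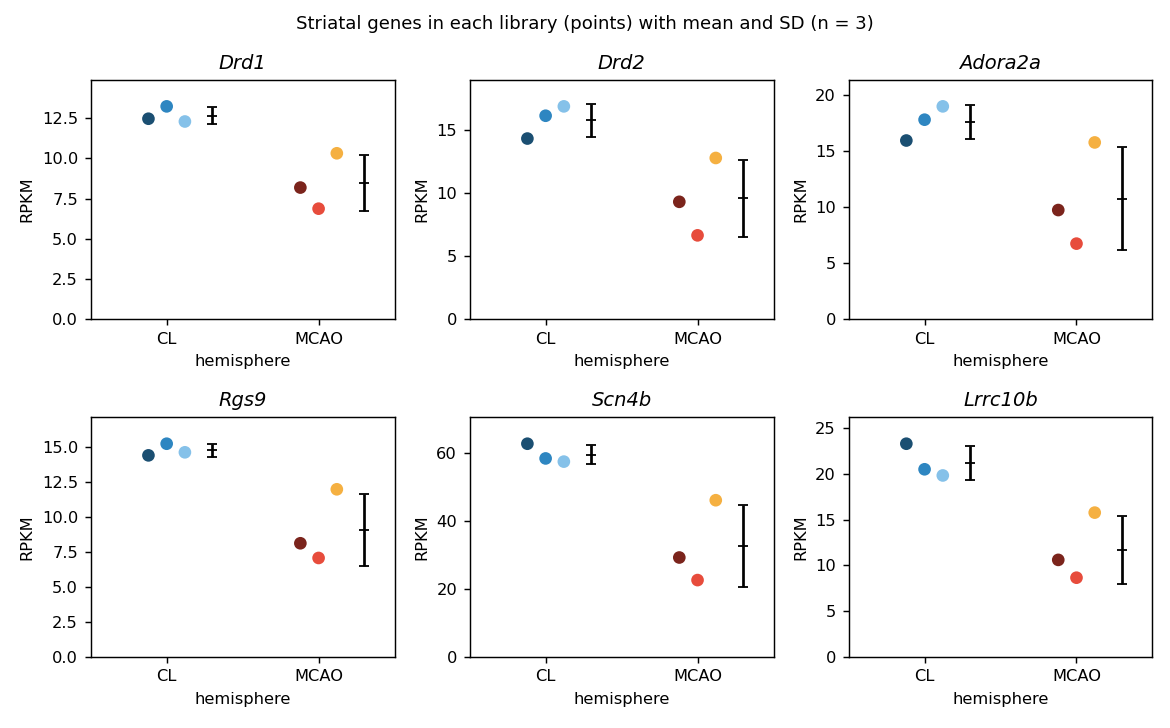
RPKM of 6 striatal genes in each library, with CL replicates 1 to 3 in shades of blue and MCAO replicates 2, 3 and 4 in dark red, red and orange, and with the mean and SD (n = 3) beside the points. The y axes start at 0, and for each gene the MCAO libraries lie below the CL libraries, with replicate 3 lowest and replicate 4 highest.

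Lists of other neurons had medians closer to 0. The median was -0.07 for 17 cortical glutamatergic genes, of which 1 did not overlap (7 without CL replicate 1), and -0.06 for 17 tested genes of GABAergic interneurons (0.00 without CL replicate 3), all of which overlapped. Camk2a, a kinase of excitatory neurons, was at 491 to 566 RPKM in CL and at 448 to 468 RPKM in MCAO (log2FC -0.21 ± 0.07, limma adjusted p = 0.271), and Gad1, which makes GABA, overlapped at 90.4 to 99.4 RPKM in CL and 86.1 to 96.3 RPKM in MCAO. Genes shared by many neurons were slightly lower, with 8 of 22 genes of the postsynaptic density and 11 of 23 ion channel genes below CL without overlap, and medians of -0.13 and -0.15 (15 and 16 genes without CL replicate 1). Without that library the count over all tested genes also went up, from 1202 to 2841. Grin1, the obligate NMDA receptor subunit, was at 123 to 143 RPKM in CL and 111 to 119 RPKM in MCAO (log2FC -0.22 ± 0.08). For 20 genes of presynaptic release the median was -0.08, with 3 below CL (7 without MCAO replicate 4). After rescaling to TPM these 5 medians moved toward 0 by about the same small step and remained negative, at -0.04, -0.03, -0.10, -0.12 and -0.05.

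The list of myelin and mature oligodendrocytes had a median of -0.06, with 2 of 17 genes below CL, and Mbp was at 363 to 437 RPKM in CL and 313 to 384 RPKM in MCAO. Oligodendrocyte precursors (median 0.04), neuroblasts and progenitors (0.03), ependyma (0.06) and choroid plexus (0.10) each had at most 1 gene above and 1 below CL without overlap, and these 4 medians and that of myelin changed sign under at least 1 other scaling or left-out library. The erythrocyte list had a median of -0.52, which was -0.19 and -0.20 without CL replicate 1 or MCAO replicate 3 and -0.99 without CL replicate 2 or MCAO replicate 4, and all of its 5 genes overlapped, among them Hba-a1 of alpha-globin at 71.3, 26.5 and 60.2 RPKM in CL and 26.5, 18.7 and 62.3 RPKM in MCAO.

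Lists of vessel cells had small medians. Of 21 genes of the endothelium and the blood-brain barrier 4 did not overlap (median 0.12; 9 genes without CL replicate 1), with Cldn5, the claudin of tight junctions, at 14.9 to 16.8 RPKM in CL and 18.4 to 19.8 RPKM in MCAO (log2FC 0.25 ± 0.16). Vwf, the clotting factor carrier, was at 6.60, 2.68 and 2.77 RPKM in CL and at 4.20, 6.70 and 3.83 RPKM in MCAO. Of 16 tested angiogenesis genes 1 did not overlap (median 0.06, and -0.01 after quantile normalization), and Vegfa was at 21.4 to 22.7 RPKM in CL and at 20.2, 14.6 and 23.5 RPKM in MCAO. The medians were 0.22 (0.13 without MCAO replicate 3) for 10 fibroblast and meningeal genes, of which 3 did not overlap, and 0.07 for 13 genes of pericytes and smooth muscle, of which 2 did not.

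Lists of early stress programs had medians near 0 at 48 h. None of the 20 immediate early genes separated the groups, and the median was 0.03 (-0.16 without CL replicate 1 and 0.25 without CL replicate 2). Fos was at 5.48, 13.3 and 6.45 RPKM in CL and at 14.2, 11.4 and 6.82 RPKM in MCAO (log2FC 0.40 ± 0.44). Medians were 0.04 for 19 tested genes of hypoxia and glycolysis (-0.02 without CL replicate 2), 0.15 for 16 heat shock chaperones, 0.07 for 14 genes of the integrated stress response and 0.14 for 17 genes of p53 targets and apoptosis. Single members stood above these medians, among them Hspb1, a small heat shock protein made by reactive astrocytes (3.38 to 4.63 RPKM in CL, 4.86 to 13.3 RPKM in MCAO), Atf3, a stress transcription factor (0.224 to 0.563 RPKM in CL, 0.720 to 2.72 RPKM in MCAO), and Casp8, an initiator caspase (0.704 to 0.830 RPKM in CL, 1.22 to 2.07 RPKM in MCAO). Hmox1, which breaks down heme, overlapped at 2.25 to 4.34 RPKM in CL and 3.42 to 10.6 RPKM in MCAO, and 6 of 18 tested genes of Nrf2 and iron handling did not overlap (median 0.30, and 0.10 without MCAO replicate 3; 11 genes without CL replicate 1). Mt1 and Mt2, the metallothioneins that bind zinc, were high in CL replicate 1 and MCAO replicate 3, with Mt2 at 188, 81.6 and 100 RPKM in CL and at 118, 276 and 120 RPKM in MCAO.

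Housekeeping machinery moved in a narrow band. All 25 cytosolic ribosomal protein genes had a positive log2FC between 0.10 and 0.38, with a median of 0.24 and 11 without overlap, and 23 without overlap once either CL replicate 1 or MCAO replicate 4 was left out. None of the 25 passed the adjusted limma test, and 18 had an unadjusted p under 0.05. Rplp0, to which the authors normalized their own qPCR, did not overlap. It was at 123, 108 and 102 RPKM in CL and at 149, 157 and 126 RPKM in MCAO (log2FC 0.38 ± 0.13, limma adjusted p = 0.279). Of 26 genes of oxidative phosphorylation 0 did not overlap (median 0.02, with -0.05 without CL replicate 2 and -0.02 without MCAO replicate 4). The mitochondrial transcripts mt-Atp8 and mt-Nd4l were among the lower genes of at least 5 RPKM, but mt-Atp8 at 14.9, 12.0 and 35.7 RPKM in CL and 4.50, 11.8 and 11.1 RPKM in MCAO was high in CL replicate 3, the library with the largest share of mitochondrial reads, whose part in these values was not tested. The 20 genes of cholesterol synthesis all had a positive log2FC, of at most 0.33, and 3 did not overlap.

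**Figure D5:**
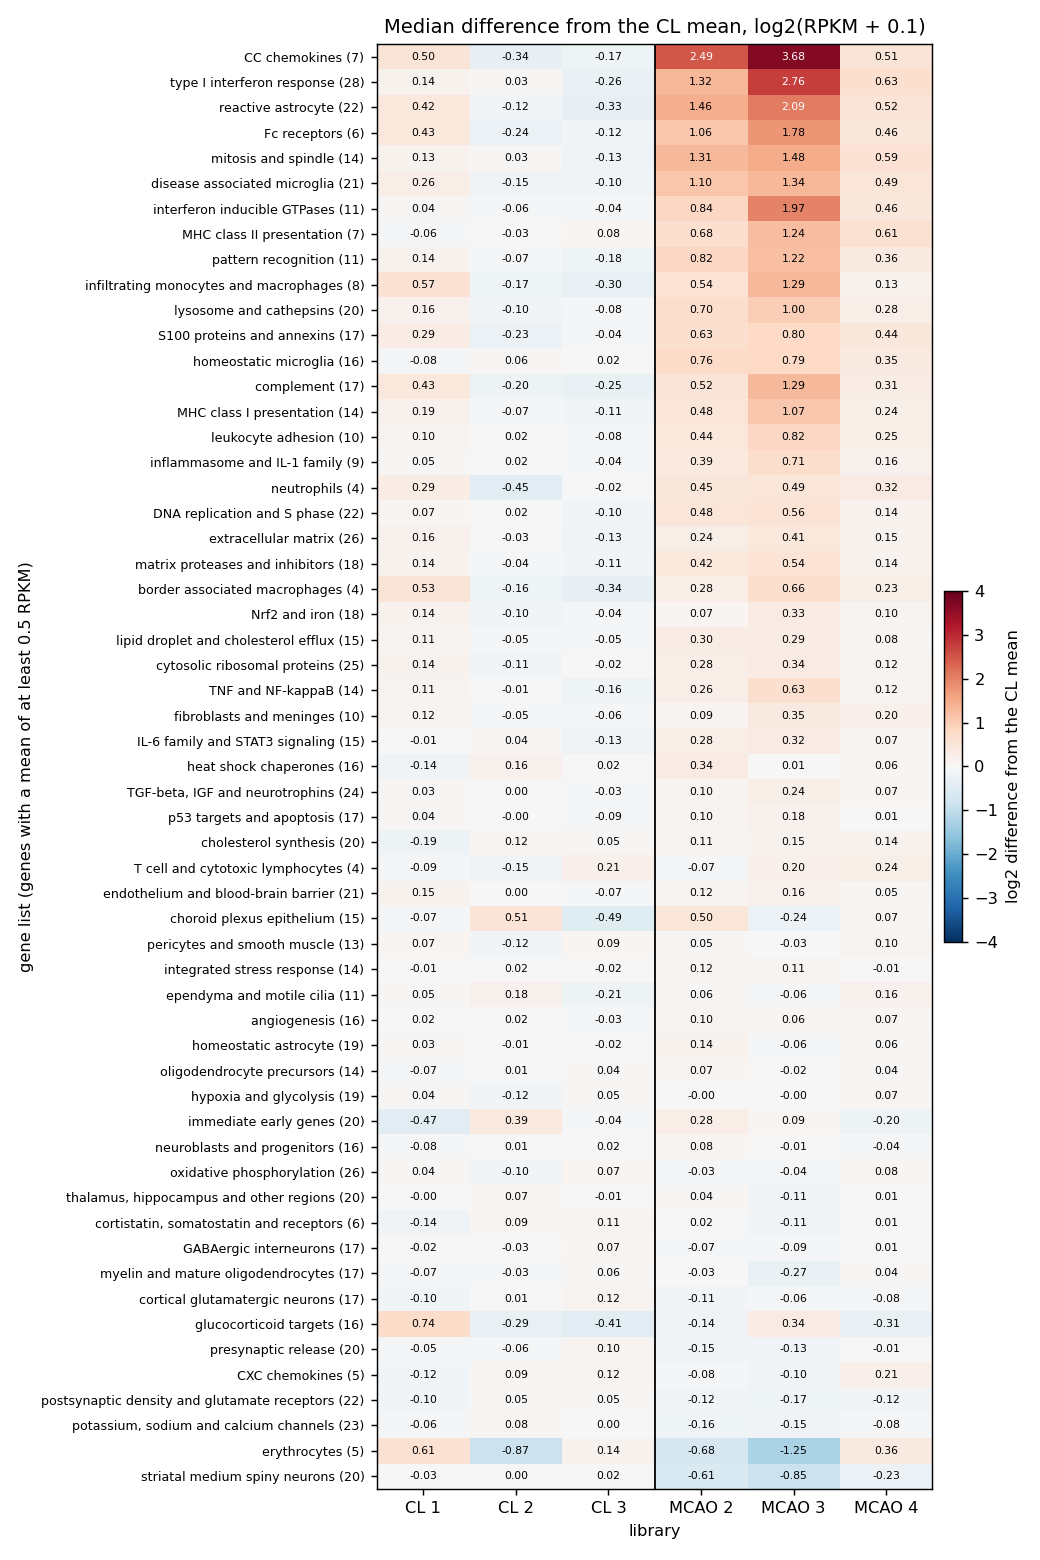
Median log2 difference from the CL mean of the tested genes of each of the 57 lists, by library, ordered by the log2 fold change, with the number of tested genes in brackets. The CC chemokine, interferon, reactive astrocyte and mitosis lists are red in all 3 MCAO columns and strongest in MCAO replicate 3. The striatal list is blue in all 3 MCAO columns. The CL replicate 1 column holds positive values for several lists, among them reactive astrocyte, complement, glucocorticoid, macrophage, Fc receptor and CC chemokine lists.

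Of the 57 lists, 16 had a median of 0.5 or more and 2 of -0.5 or less, the striatal and the erythrocyte list. Without MCAO replicate 3 the medians reached 0.5 in size for 10 lists, all higher in MCAO. Of the 57 medians, 39 moved by over 1.5 times or changed sign when 1 of the 6 libraries was left out, 25 of which were under 0.2 in size. The lists overlap and were written with earlier results of these data known, so their counts are descriptions.

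The 3 ischemic libraries held the response to different degrees. Among the 1428 genes that were higher without overlap, MCAO replicate 3 was farthest from CL for 825 (57.8%) and MCAO replicate 4 was nearest to CL for 941 (65.9%), while CL replicate 1 was the contralateral library nearest to MCAO for 680 (47.6%). Among the 1202 lower genes MCAO replicates 2 and 3 were farthest from CL for 40.3% and 40.2% and replicate 4 for 19.6%. Of the 20 genes that rose, MCAO replicate 3 was the highest for 14 and replicate 2 for 5, MCAO replicate 4 was the lowest ischemic library for 18, and CL replicate 1 was the highest contralateral library for 11. The lesion size of each animal is not given in the sources used here, and its part in this order was not tested.

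The number of genes that passed depended on single libraries. Without MCAO replicate 4, 162 genes passed as higher (0.927% of those tested) and 20 as lower, and all 20 genes named above were among the 162. Without CL replicate 1, 2 or 3, 1, 2 and 1 genes passed, of which 1, 1 and 0 were among the 20. Without MCAO replicate 2 or 3, 0 genes passed. At an unadjusted limma p under 0.05 there were 1275 to 2376 genes in these 5 fits. Tgm1 also passed without CL replicate 1 and Pbk also passed without CL replicate 2. With voom on the recovered reads, or with a pseudocount of 1 in place of 0.1, 0 genes passed (2041 and 1964 at an unadjusted p under 0.05). With the 6 libraries fitted alone 1 gene passed, which was not among the 20. The 20 genes are therefore named as those that passed in 1 model and not as a fixed set.

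In Cort-/- mice, which were fitted in the same model with 5 MCAO libraries against 3 CL libraries of their own, 838 genes passed as higher (4.79% of those tested) and 372 as lower (2.13%). Rescaled to TPM these counts were 866 and 180, and with voom on the recovered reads they were 1233 and 191. Of the 20 genes that rose in Cort+/+ mice 19 also passed in Cort-/- mice, which is 95% of the Cort+/+ calls and 2.27% of the higher Cort-/- calls, and all 20 had the same sign. The 20 had a median log2FC of 1.89 in Cort+/+ mice and 2.05 in Cort-/- mice. The difference between the genotypes, tested as an interaction in the same fit, passed the adjusted limma threshold for 0 of the 17484 genes and an unadjusted p of 0.05 for 276 genes, 1 of which was among the 20. That gene was Mir6907, with a log2FC of 0.64 in Cort+/+ and 0.28 in Cort-/- mice. The numbers of genes that passed in the 2 genotypes rest on unequal numbers of libraries and are not a test of their difference.

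For the striatal list the median was -0.59 in Cort+/+ and -0.72 in Cort-/- mice, where 18 of its 20 genes passed as lower. For the interferon list the medians were 1.55 and 2.30, with 24 of 28 genes passing in Cort-/- mice, for the mitosis list they were 1.07 and 1.36, with 12 of 14 passing, and for the reactive astrocyte list 1.47 and 1.85, with 15 of 22 passing. No difference between the genotypes was shown for any member of these lists, since none passed the adjusted interaction test. Cort itself averaged 4.60 RPKM on the contralateral side (SD 1.73, n = 3) and 3.89 RPKM on the ischemic side (SD 0.536, n = 3). The exact two-sided permutation p was 0.6, and the lowest possible value was 0.1. The contralateral SD rested on CL replicate 1, without which the contralateral SD was 0.126 RPKM and the difference went from -0.708 to -1.70 RPKM (exact permutation p = 0.2, the lowest that 2 libraries against 3 allow). In addition, 0 of the 6 tested genes of cortistatin, somatostatin and their receptors separated the groups.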

How the data were processed

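RNA of whole hemispheres was sequenced in 14 libraries. The authors aligned the reads to GRCm39 with GENCODE M28 genes by reanalyzerGSE and deposited RPKM values per library, without pooling; gene lengths and library scaling are not given. Whole reads (tolerance 0.0001 reads) were recovered from the RPKM steps for 99.997% of 495656 values above 0 and gave the depths. Library sizes recovered from the RPKM were 0.954 to 1.041 times these reads. The voom fits used the reads without that scaling, so they differ from the main fit in scaling too.

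Genes averaging 0.5 RPKM or more over the 6 Cort+/+ libraries were fitted on log2(RPKM + 0.1) with limma 3.58.1 (R 4.3.3) in 1 model of the 4 groups, with moderated variances, a trend and Benjamini-Hochberg adjustment over all genes fitted. The step was tested on simulated data. RPKM, unlike counts, carry no depth into the fit, so precision at low expression rests on the trend. Where nothing ties libraries to animals, p-values measure the spread between libraries only. No set test was run.

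The members and the 57 gene lists (943 genes, all in the table, 6 under another symbol) were chosen with earlier results of these data known. Genes were named by rule: among genes that passed without overlap the 12 of largest change in each direction, among genes of at least 5 RPKM without overlap the 10 of largest change in each direction, in each list the first tested member and the 3 of largest change, and Cort. From these a selection is described, 1 gene of the striatal list is not reported here, and genes outside the rule are marked as such or are defining markers of a cell type. Gene positions are from the GRCm39 annotation and promoters from RefSeq (GRCm38.p6). Other pseudocounts, filters, scalings, variance models, libraries left out, a replicate block and voom were run as alternatives. Analyses used Python 3.11.15.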

Additional observations from a re-analysis of the deposited data

How the results depend on the processing

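The count of genes with an adjusted limma p under 0.05 in Cort+/+ mice was 20 and changed with most choices of model. It was 0 with a pseudocount of 1 (1964 genes at an unadjusted p under 0.05), 5 without a minimum RPKM, 1 with the 6 libraries fitted alone, 9 without a variance trend, 33 with library weights, 0 with voom on recovered reads (2041 unadjusted) and 0 to 182 with 1 library left out. It was 15 to 28 under the other filters, scalings and the lower pseudocount. Genes without overlap between groups numbered 2630 in all and 3579 to 5603 with 1 library left out, where fewer libraries have to separate. Lists with a median of at least 0.5 in size numbered 18, 13 with a pseudocount of 1, and 10 to 19 with 1 library left out. In Cort-/- mice the count was 1210, and 792 without a minimum RPKM. The interaction gave 0 genes (276 unadjusted), and 1 gene without a minimum RPKM (1527 unadjusted). The difference of Cort was -0.708 RPKM and lay between -1.70 and -0.165 with 1 library left out.

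Replicate numbers 2 and 3 are shared between the Cort+/+ groups. The correlations of same-numbered libraries were 0.262 and -0.092 in Cort+/+ mice and between -0.149 and 0.047 in Cort-/- mice. Differently numbered libraries ranged from -0.166 to 0.228 in Cort+/+ and from -0.247 to 0.298 in Cort-/- mice. Correlations of differences from the means of so few libraries cannot decide whether samples are paired. The labels do not tie hemispheres to animals, so the numbers were not taken to pair the samples. With a replicate block 0 genes passed in Cort+/+ mice (2299 unadjusted) and 0 in Cort-/- mice (2854 unadjusted), and 0 in the interaction (475 unadjusted).

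Of the genes named, Apoe (log2FC -0.03, and -0.14 to 0.046 with 1 library left out) changed sign with quantile normalization (0.061), TPM (0.0029), the replicate block (0.025), voom (0.014) and without CL replicate 1 (0.046) or CL replicate 3 (0.011), Bub1b (0.40, and -0.11 to 0.89 with 1 library left out) without CL replicate 3, and Pdyn (-0.15 to 0.0014 with 1 library left out) without MCAO replicate 3. Over all named genes and alternatives 1847 values kept direction and side of the threshold, 209 lost it, 52 gained it and 8 changed sign. The causes were not tested. With 3 libraries a side, genes near 0.1 RPKM rest on few reads.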
